A study of Jaculus jaculus and Mus musculus with 24 samples.

Results

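Subunits 6a, 7a and 8 of cytochrome oxidase are each encoded by a muscle gene and a ubiquitous gene, and these 3 isoform pairs were followed in the limb muscle of newborn jerboa and mouse. The 6 genes are Cox6a2, Cox7a1 and Cox8b, the muscle isoforms, and Cox6a1, Cox7a2 and Cox8a, their ubiquitous partners. They were chosen by symbol, were 6 of the 17641 features in the count files, and all 6 passed the filter on low counts. The study sequenced total RNA from the lesser Egyptian jerboa (Jaculus jaculus), a hopping rodent, and the mouse, in order to look at muscle loss. Foot muscle was taken from sections of the hindfoot and FDS muscle was dissected from the forelimb, at postnatal day 0 (P0) and postnatal day 3 (P3). The 8 groups were therefore jerboa foot P0, jerboa forelimb P0, jerboa foot P3, jerboa forelimb P3, mouse foot P0, mouse forelimb P0, mouse foot P3 and mouse forelimb P3, with 3 libraries in each. All carried the treatment label normal, and no strain, genotype or sex was given.

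Cytochrome oxidase is the last complex of the mitochondrial respiratory chain, where it passes electrons from cytochrome c to oxygen and pumps protons. Its catalytic core is made from mitochondrial DNA, and the nuclear subunits around that core include the 3 that come in a muscle form and a ubiquitous, or liver, form. In rodents the muscle forms of 6a, 7a and 8 are made in heart and skeletal muscle and gain on the ubiquitous forms as muscle matures after birth. Cox7a1 and Cox8b are also made in brown fat.

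The coding sequences of the mouse genes are shown because they bear on whether reads of the 2 isoforms of a pair can be told apart. They come from the GENCODE M21 mouse transcripts (GRCm38) whose identifiers the files use. The capitals mark the longest run of bases shared exactly by both members of a pair. Each sequence is whole except that of Cox6a1, which is given from base 40 of its 339 coding bases.

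Cox6a2: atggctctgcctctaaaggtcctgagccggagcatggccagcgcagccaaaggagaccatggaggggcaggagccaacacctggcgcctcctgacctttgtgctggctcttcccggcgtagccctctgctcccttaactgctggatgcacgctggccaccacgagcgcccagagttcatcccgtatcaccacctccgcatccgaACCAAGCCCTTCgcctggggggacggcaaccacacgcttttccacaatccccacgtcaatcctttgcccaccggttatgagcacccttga
Cox6a1: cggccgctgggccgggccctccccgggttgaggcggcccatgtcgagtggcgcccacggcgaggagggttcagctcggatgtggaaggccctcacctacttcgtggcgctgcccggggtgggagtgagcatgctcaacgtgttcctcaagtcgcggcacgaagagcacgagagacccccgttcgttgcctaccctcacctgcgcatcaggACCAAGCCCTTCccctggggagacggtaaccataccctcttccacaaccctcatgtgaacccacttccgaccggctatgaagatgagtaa
Cox7a1: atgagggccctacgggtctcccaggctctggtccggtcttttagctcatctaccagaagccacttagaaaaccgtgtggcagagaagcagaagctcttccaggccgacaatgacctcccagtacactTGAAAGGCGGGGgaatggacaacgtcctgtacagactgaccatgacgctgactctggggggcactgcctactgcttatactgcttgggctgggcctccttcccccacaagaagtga
Cox7a2: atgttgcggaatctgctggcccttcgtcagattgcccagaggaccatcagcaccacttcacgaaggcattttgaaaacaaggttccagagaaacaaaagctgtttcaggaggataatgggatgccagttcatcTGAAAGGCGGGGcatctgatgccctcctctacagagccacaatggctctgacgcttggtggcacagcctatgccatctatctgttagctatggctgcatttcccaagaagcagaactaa
Cox8b: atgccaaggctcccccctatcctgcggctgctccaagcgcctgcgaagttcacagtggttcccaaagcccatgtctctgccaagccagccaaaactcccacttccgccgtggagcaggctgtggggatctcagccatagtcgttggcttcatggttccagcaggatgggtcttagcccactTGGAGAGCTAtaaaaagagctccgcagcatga
Cox8a: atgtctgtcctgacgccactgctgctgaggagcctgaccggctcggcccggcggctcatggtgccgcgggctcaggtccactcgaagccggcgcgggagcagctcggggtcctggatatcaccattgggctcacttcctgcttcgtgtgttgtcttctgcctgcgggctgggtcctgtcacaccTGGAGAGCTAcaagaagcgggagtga

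The longest shared run was 12 bases for the subunit 6a pair, 12 for the 7a pair and 10 for the subunit 8 pair. Over aligned coding bases the partners were identical at 65.3% for 6a, 64.5% for 7a and 57.1% for 8. On GRCm38, Cox6a2 lies on chromosome 7 at 128205435 to 128206387 on the minus strand, where it overlaps Itgad on the other strand. Cox6a1 lies on chromosome 5 at 115345642 to 115348981 on the minus strand. Cox7a1 lies on chromosome 7 at 30184144 to 30186030 on the plus strand, and Cox7a2 on chromosome 9 at 79755361 to 79759878 on the minus strand. Cox8b lies on chromosome 7 at 140898945 to 140900446 and Cox8a on chromosome 19 at 7215153 to 7217616, both on the minus strand. Apart from Itgad, no other gene had a transcript that matched a member at 95% identity or more over at least 50 bases. Jerboa sequences were not used here, so this holds for the mouse genes.

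Library totals ran from 16.7 M to 54.7 M reads, and a member had between 123 and 15555 reads in a library. A fit across 14448 genes in all 24 libraries left 16 residual degrees of freedom. Nothing in the labels ties the 3 libraries of a group to different animals, and the p-values therefore rest on the spread between libraries, which may be technical. Levels below are reads scaled to library size (CPM) after TMM normalization, as the mean ± SD of the 3 libraries of a group. Differences are log2 fold changes ± SE from edgeR's quasi-likelihood test, and a gene is called higher or lower at a Benjamini-Hochberg adjusted p under 0.05 over all genes tested. CPM is not divided by transcript length, so levels were compared between groups of 1 species for 1 gene, and between genes only per length and in the mouse. Levels were not compared between species, because the jerboa and mouse gene models behind the counts may differ.

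In each species and at each age the 3 muscle isoforms were lower in foot than in forelimb. In jerboa the 3 ubiquitous isoforms were higher in foot at both ages, while in mouse Cox6a1 was higher, Cox7a2 was lower, and Cox8a was higher at P3 only. The foot and forelimb samples differed in most genes, so such calls were common. The share of all genes called in either direction was 65.9% in jerboa at P0, 67.9% in jerboa at P3, 59.0% in mouse at P0 and 52.5% in mouse at P3. The share called lower was 34.8%, 32.1%, 29.3% and 25.3% in the same order, against 3 of 3 muscle isoforms in each of these 4 comparisons. The share called higher was 31.2%, 35.9%, 29.8% and 27.3%, against 3, 3, 1 and 2 of the 3 ubiquitous isoforms. In bulk muscle, fewer muscle fibres in a sample and less of a transcript in each fibre cannot be told apart. Limb also coincided with how the tissue was collected. A limb difference therefore cannot be separated from a difference in collection, in either species or at either age.

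**Figure D1:**
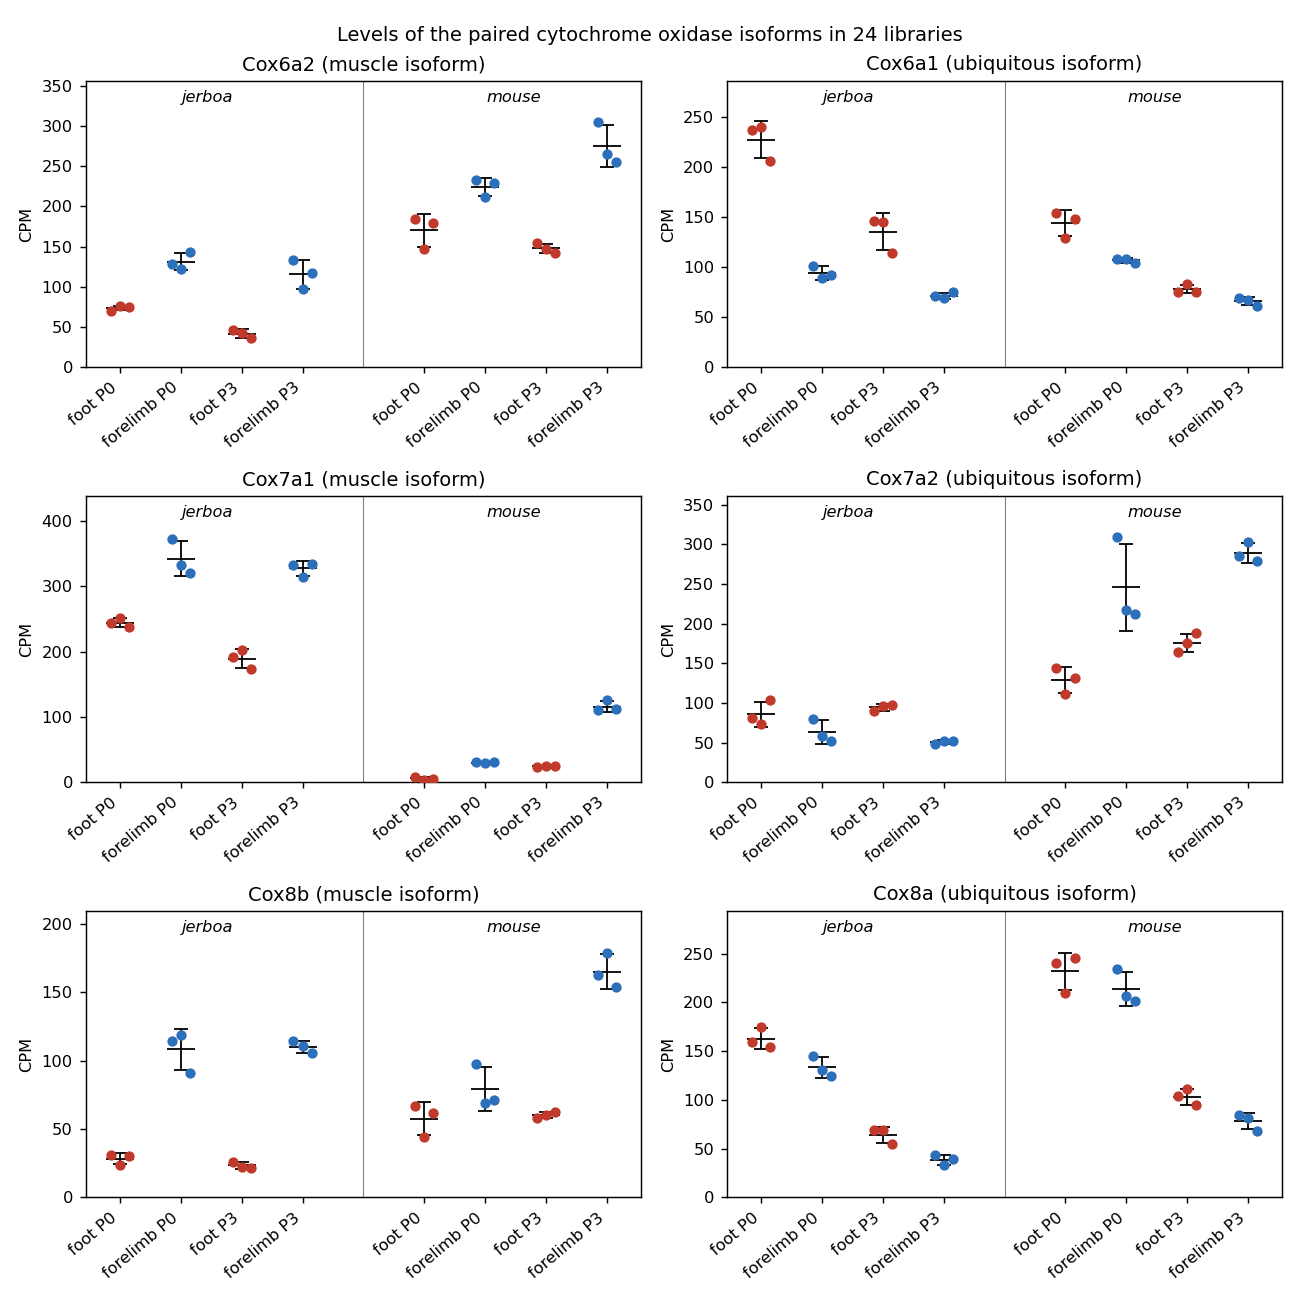
CPM of the 6 isoforms in the 8 groups, on linear axes that start at 0 and differ between panels. Points are single libraries (foot red, forelimb blue), and bars are the mean and SD of 3 libraries. The muscle isoforms lie lower in foot than in forelimb, as with Cox8b at 28.4 against 108 CPM in jerboa at P0.

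Cox6a2 encodes the muscle form of subunit 6a, a small subunit that spans the inner membrane. At P0 in jerboa, foot held 73.6 ± 2.93 CPM (70.3, 75.9 and 74.5) and forelimb 131 ± 10.5 CPM (129, 122 and 143). By P3 the jerboa values were 41.7 ± 5.31 CPM in foot (46.2, 43.0 and 35.9) and 116 ± 17.9 CPM in forelimb (133, 97.1 and 117). Every foot library was below every forelimb library of its age. Cox6a2 was lower in jerboa foot by a log2 fold change of -0.84 ± 0.11 at P0 (adjusted p = 1.5e-07) and -1.47 ± 0.11 at P3 (adjusted p = 1e-11). In mouse at P0 its level was 170.2 ± 20.6 CPM in foot (184, 147 and 179.6) and 224 ± 11.1 CPM in forelimb (233, 212 and 229). At P3 mouse foot held 148 ± 5.97 CPM (154, 147 and 142) and mouse forelimb 275 ± 26.0 CPM (304, 266 and 255). Again no foot library reached a forelimb library of its age. The mouse difference was -0.40 ± 0.10 at P0 (adjusted p = 0.0015) and -0.90 ± 0.10 at P3 (adjusted p = 7.7e-08).

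Its ubiquitous partner Cox6a1 went the other way. Jerboa foot held 228 ± 18.8 CPM at P0 (237, 239.9 and 206), against 94.2 ± 6.61 CPM in forelimb (102, 88.9 and 92.1). At P3 jerboa foot was at 136 ± 18.3 CPM (147, 146 and 114) and forelimb at 71.6 ± 2.98 CPM (71.1, 68.9 and 74.8). All foot libraries were above all forelimb libraries. The jerboa difference was 1.27 ± 0.09 at P0 (2.42-fold higher, adjusted p = 3.3e-12) and 0.92 ± 0.09 at P3 (adjusted p = 9.9e-10). Mouse foot held 144 ± 12.9 CPM at P0 (154, 129.6 and 148) and forelimb 107 ± 2.24 CPM (108, 108 and 104). At P3 the mouse values were 78.0 ± 4.12 CPM in foot (75.6, 82.8 and 75.6) and 66.0 ± 4.01 CPM in forelimb (69.4, 67.2 and 61.6). The groups did not overlap in mouse either, although the gap at P3 was narrow. Cox6a1 was higher in mouse foot by 0.43 ± 0.08 at P0 (adjusted p = 0.00012) and by 0.24 ± 0.09 at P3 (adjusted p = 0.02). The P3 call was lost without mouse foot replicate 2 (0.20, adjusted p = 0.10) and without mouse forelimb replicate 3 (0.19, adjusted p = 0.10).

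Cox7a1 encodes the muscle form of subunit 7a, another small subunit of the inner membrane. In jerboa at P0 its level was 244 ± 6.74 CPM in foot (243, 252 and 238) and 342 ± 27.1 CPM in forelimb (373, 333 and 321). At P3 jerboa foot held 189 ± 14.9 CPM (192, 203 and 173) and forelimb 327 ± 11.1 CPM (333, 315 and 334). The foot libraries were all below the forelimb libraries, by -0.49 ± 0.13 on the log2 scale at P0 (adjusted p = 0.0016) and -0.79 ± 0.13 at P3 (adjusted p = 6.1e-06). In mouse the fold was larger. Mouse foot held 5.78 ± 2.60 CPM at P0 (8.54, 3.37 and 5.44, from 512 reads in all), against 30.0 ± 0.790 CPM in forelimb (30.2, 29.1 and 30.6). At P3 the mouse values were 24.3 ± 0.801 CPM in foot (23.5, 24.4 and 25.1) and 116 ± 8.55 CPM in forelimb (110.3, 126 and 112). No libraries overlapped, but the 3 mouse foot libraries at P0 spread widely around their mean. Cox7a1 was 5.31-fold lower in mouse foot at P0 (-2.41 ± 0.16, adjusted p = 5.3e-12) and 4.77-fold lower at P3 (-2.25 ± 0.14, adjusted p = 1.6e-12). Among all 14448 genes, 1.02% had a lower log2 fold change than Cox7a1 in mouse at P0.

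Cox7a2, the ubiquitous form of 7a, was the member whose limb difference had opposite signs in the 2 species. In jerboa at P0 foot held 86.0 ± 15.8 CPM (80.4, 73.7 and 104) and forelimb 63.3 ± 14.9 CPM (80.2, 57.9 and 51.9). These libraries overlapped, since forelimb replicate 1 was above foot replicate 2. The jerboa difference at P0 was 0.44 ± 0.14 (adjusted p = 0.0094), and it was not called without foot replicate 3 (0.28, adjusted p = 0.10) or without forelimb replicate 3 (0.31, adjusted p = 0.078). At P3 jerboa foot was at 94.3 ± 4.27 CPM (89.4, 96.0 and 97.4) and forelimb at 50.8 ± 2.24 CPM (48.2, 51.7 and 52.4). Here the groups were apart, with a difference of 0.89 ± 0.14 (adjusted p = 6.2e-06). Mouse foot at P0 held 129 ± 16.2 CPM (144, 112 and 132) and mouse forelimb 246 ± 54.8 CPM (309, 217 and 212). At P3 mouse foot held 176 ± 11.6 CPM (164, 176 and 188) and forelimb 289 ± 12.6 CPM (285, 303 and 279). All mouse foot libraries were below the forelimb libraries, by -0.93 ± 0.14 at P0 (adjusted p = 3.4e-06) and -0.72 ± 0.14 at P3 (adjusted p = 0.00011). In mouse, then, both isoforms of subunit 7a were lower in foot.

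Cox8b, the muscle form of subunit 8, had the largest limb difference of the members in jerboa. Jerboa foot held 28.4 ± 3.92 CPM at P0 (31.2, 23.9 and 30.0) and forelimb 108 ± 14.8 CPM (115, 119 and 91.3). At P3 the levels were 23.4 ± 2.31 CPM in foot (26.0, 22.4 and 21.7) and 110.1 ± 4.44 CPM in forelimb (114, 111 and 105). The highest foot library stood far below the lowest forelimb library at each age. Cox8b was 3.81-fold lower in jerboa foot at P0 (-1.93 ± 0.14, adjusted p = 1.9e-11) and 4.70-fold lower at P3 (-2.23 ± 0.14, adjusted p = 9.6e-13). In mouse at P0 foot held 57.5 ± 12.05 CPM (66.5, 43.8 and 62.1) and forelimb 79.3 ± 16.1 CPM (97.8, 68.9 and 71.2). Mouse foot at P3 was at 60.1 ± 2.27 CPM (57.9, 59.9 and 62.4) and forelimb at 165 ± 12.8 CPM (163, 179 and 154). The mouse groups were close at P0, with 66.5 CPM in the highest foot library and 68.9 CPM in the lowest forelimb library, and well apart at P3. The mouse difference was -0.47 ± 0.13 at P0 (adjusted p = 0.0041) and -1.46 ± 0.13 at P3 (adjusted p = 2.3e-09). The P0 call was lost without mouse forelimb replicate 1, where the value was -0.31 (adjusted p = 0.052).

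Cox8a, the ubiquitous form of subunit 8, had the smallest limb difference of the members in 3 of the 4 comparisons. In jerboa at P0 it was at 163 ± 10.6 CPM in foot (159, 175 and 155) and 133 ± 10.6 CPM in forelimb (145, 130.4 and 124). At P3 jerboa foot held 64.4 ± 8.22 CPM (69.0, 69.2 and 54.9) and forelimb 38.6 ± 5.21 CPM (43.6, 33.2 and 38.9). The foot libraries were above the forelimb libraries at both ages. The jerboa difference was 0.29 ± 0.10 at P0 (adjusted p = 0.016) and 0.74 ± 0.11 at P3 (adjusted p = 1.2e-06). At P0 the call was lost without foot replicate 2 (0.23, adjusted p = 0.083), forelimb replicate 2 (0.27, adjusted p = 0.05) or forelimb replicate 3 (0.24, adjusted p = 0.076). Mouse foot held 232 ± 19.2 CPM at P0 (241, 209.9 and 245) and forelimb 214 ± 17.6 CPM (234, 206 and 201). At P3 mouse foot held 103 ± 8.24 CPM (104, 111 and 94.3) and forelimb 78.0 ± 8.38 CPM (84.2, 81.4 and 68.5). The mouse libraries overlapped at P0, where Cox8a was not called (0.12 ± 0.10, adjusted p = 0.33), and were apart at P3 (0.40 ± 0.10, adjusted p = 0.0019).

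**Figure D2:**
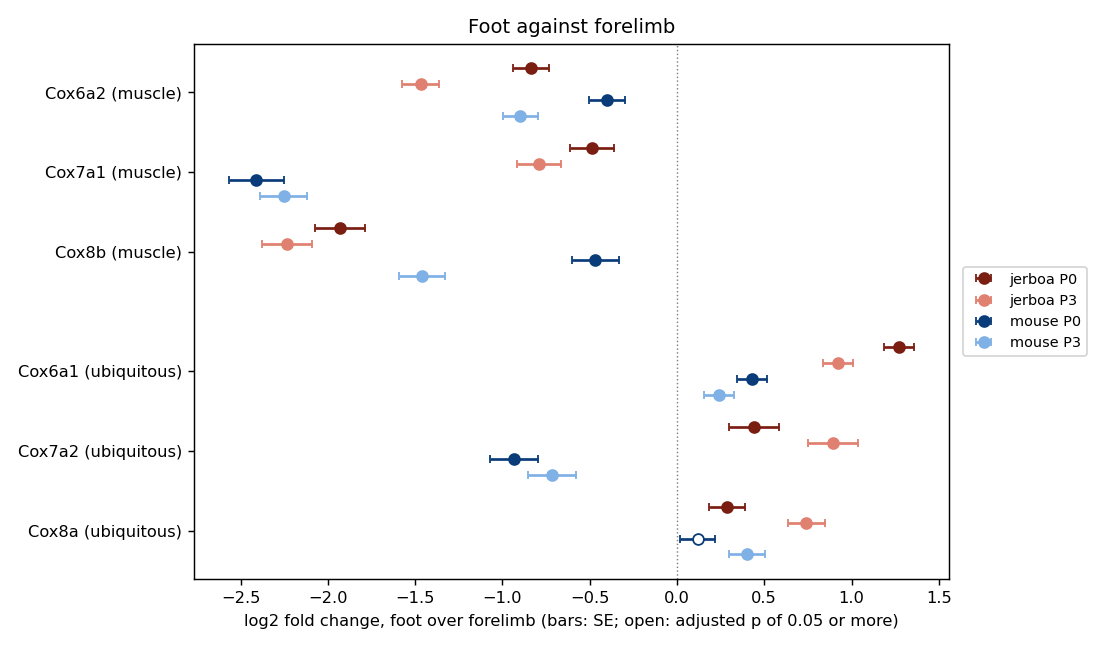
Log2 fold change of each isoform in foot over forelimb, with SE, in jerboa and mouse at P0 and P3. Filled points are called and open points are not. The 3 muscle isoforms lie below 0 in all 4 comparisons, and Cox7a2 lies above 0 in jerboa (0.44 and 0.89) and below 0 in mouse (-0.93 and -0.72).

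The ratio of the muscle to the ubiquitous isoform within a library does not depend on how libraries are scaled. It can still depend on the mix of cells in a sample. As for single genes, fewer muscle fibres and a change within fibres cannot be told apart in this ratio. For subunit 6a, Cox6a2 made up 24.5% ± 1.88 of the reads of the pair in jerboa foot at P0 (22.9%, 24.04% and 26.5%) and 58.2% ± 2.49 in forelimb (55.9%, 57.9% and 60.8%). At P3 the share was 23.5% ± 0.651 in jerboa foot and 61.5% ± 3.34 in jerboa forelimb. In mouse it was 54.1% ± 0.918 in foot and 67.7% ± 1.32 in forelimb at P0, and 65.4% ± 1.52 in foot and 80.6% ± 0.818 in forelimb at P3. Every foot library had the lower share of its species and age. Averaged over the 2 ages, the log2 ratio of Cox6a2 to Cox6a1 was -2.24 in foot relative to forelimb in jerboa and -0.98 in mouse.

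The 7a pair gave shares of Cox7a1 of 74.1% ± 3.96 in jerboa foot at P0 (75.2%, 77.3% and 69.7%) and 84.5% ± 1.98 in jerboa forelimb (82.3%, 85.2% and 86.1%). At P3 they were 66.7% ± 2.32 in jerboa foot and 86.6% ± 0.740 in jerboa forelimb. Mouse shares were 4.17% ± 1.35 in foot and 11.1% ± 1.95 in forelimb at P0, then 12.2% ± 0.358 in foot and 28.6% ± 0.711 in forelimb at P3. The limbs did not overlap in any of these 4 comparisons. The log2 ratio in foot relative to forelimb, averaged over age, was -1.31 in jerboa and -1.54 in mouse. In mouse this ratio was lower although Cox7a2 was itself lower in foot, because Cox7a1 differed by more.

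For subunit 8, Cox8b made up 14.9% ± 2.49 of the reads of the pair in jerboa foot at P0 (16.4%, 12.04% and 16.3%) and 44.7% ± 2.72 in jerboa forelimb (44.2%, 47.7% and 42.3%). By P3 the shares were 26.7% ± 1.98 and 74.1% ± 2.47. In mouse they were 19.7% ± 2.24 in foot and 26.9% ± 2.32 in forelimb at P0, and 36.9% ± 2.54 in foot and 67.9% ± 1.78 in forelimb at P3. On the log2 scale the ratio in foot relative to forelimb, averaged over age, was -2.60 in jerboa and -1.22 in mouse. Each of the 6 foot and forelimb ratio differences, 1 per pair and species, had an exact two-sided permutation p of 0.005 with limb labels permuted within age. This is the smallest value that 400 relabellings can give, and it was 0.005 after Benjamini-Hochberg adjustment over the 6 tests. The difference between species in these ratios was not tested.

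Per base of transcript, the mouse counts give an approximate balance within a pair. Whole transcript lengths were used, with no correction for fragment length or base composition. The mouse transcripts are 680 bases for Cox6a2, 571 for Cox6a1, 393 for Cox7a1, 659 for Cox7a2, 360 for Cox8b and 550 for Cox8a. On that per-length scale Cox6a2 was 49.7% ± 0.924 of its pair in mouse foot at P0 and 77.7% ± 0.906 in mouse forelimb at P3. The per-length share of Cox7a1 was 6.79% ± 2.14 in mouse foot at P0 and 40.2% ± 0.836 in mouse forelimb at P3. On that scale Cox7a2 was the more abundant form in every mouse group. For Cox8b the per-length share was 27.2% ± 2.82 in mouse foot at P0 and 76.4% ± 1.48 in mouse forelimb at P3. In mouse foot at P3 its libraries lay at 46.0%, 45.2% and 50.3%, on both sides of an even balance.

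**Figure D3:**
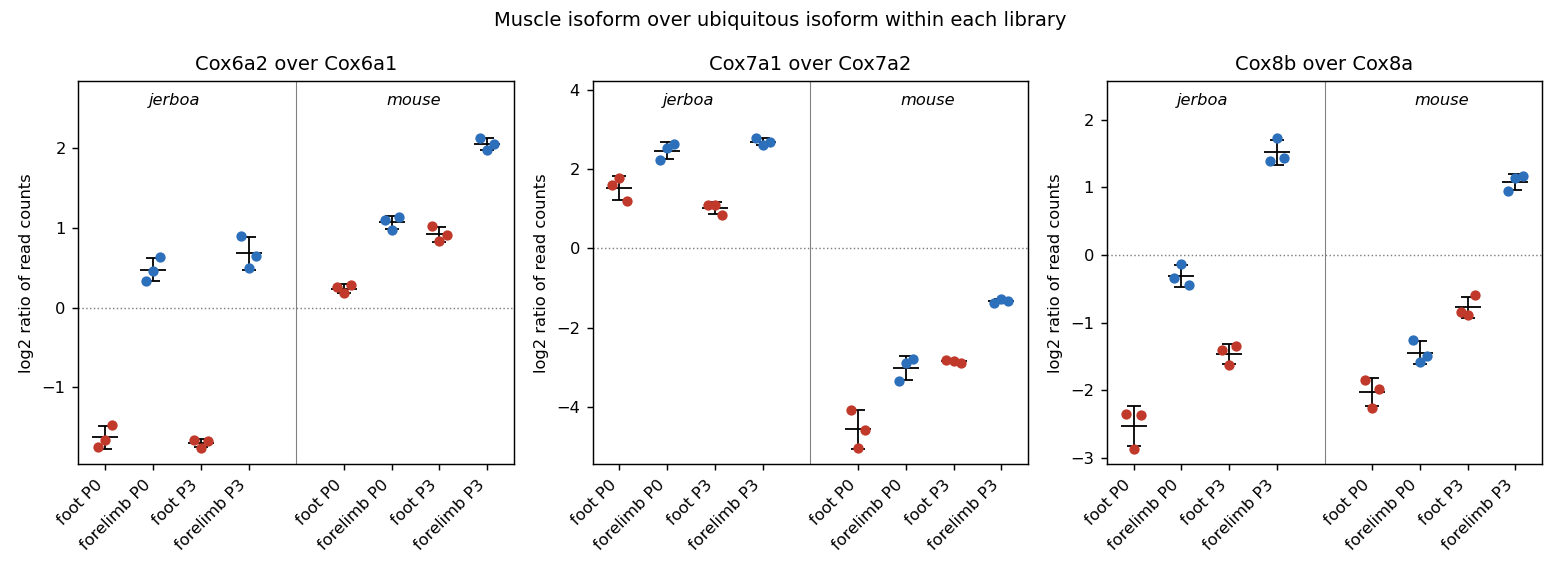
Log2 ratio of muscle to ubiquitous isoform within a library for the 3 pairs in the 8 groups. Points are libraries and bars are the mean and SD of 3. Foot lies below forelimb in each species and age, and the ratio of Cox8b to Cox8a is higher at P3 than at P0 in all 4 tissues.

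The limb difference itself was compared between the species by an interaction term in the same edgeR fit, as the jerboa log2 fold change minus the mouse log2 fold change. Of all genes, 48.6% were called in this comparison at P0 and 49.0% at P3, against 5 of 6 members at each age. The genes called higher were 21.6% at P0 and 24.1% at P3, beside 3 members, and those called lower were 26.9% and 24.9%, beside 2 members. Cox8b had the more negative limb difference in jerboa, with -1.46 ± 0.20 at P0 (adjusted p = 1.3e-06) and -0.77 ± 0.19 at P3 (adjusted p = 0.0016). Cox6a2 had values of -0.44 ± 0.15 at P0 (adjusted p = 0.015) and -0.57 ± 0.15 at P3 (adjusted p = 0.0022). The Cox6a2 call at P0 was lost without jerboa forelimb replicate 3 (-0.37, adjusted p = 0.05). Cox7a1 went the opposite way from these muscle isoforms, since its deficit in foot was deeper in mouse, with 1.92 ± 0.20 at P0 (adjusted p = 4e-08) and 1.46 ± 0.18 at P3 (adjusted p = 3.8e-07).

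Among the ubiquitous isoforms, the species difference for Cox6a1 was 0.84 ± 0.12 at P0 (adjusted p = 3.3e-06) and 0.68 ± 0.12 at P3 (adjusted p = 5e-05). For Cox7a2 it was 1.37 ± 0.20 at P0 (adjusted p = 4.4e-06) and 1.61 ± 0.20 at P3 (adjusted p = 3.4e-07). Cox8a was not called, with 0.17 ± 0.14 at P0 (adjusted p = 0.35) and 0.34 ± 0.15 at P3 (adjusted p = 0.059). The P3 value of Cox8a passed the threshold without jerboa foot replicate 3, jerboa forelimb replicate 1, mouse foot replicate 2 or mouse forelimb replicate 3, with 0.40 to 0.44 and adjusted p of 0.015 to 0.043. It also did so with the replicate block (0.34, adjusted p = 0.037).

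Between P0 and P3, age cannot be told apart from a difference in the reads, because the labels describe trimmed reads for every P0 library and original reads for every P3 library. The share of genes called was 47.3% in jerboa foot, 43.2% in jerboa forelimb, 57.6% in mouse foot and 51.4% in mouse forelimb. The share called lower at P3 was 20.3%, 20.6%, 28.5% and 25.4% in that order, against 4, 2, 2 and 2 members. The share called higher was 27.0%, 22.5%, 29.1% and 26.0%, against 0, 0, 2 and 3 members. Cox8a was lower at P3 in all 4 tissues, by -1.33 ± 0.11 in jerboa foot (adjusted p = 1.3e-09), -1.79 ± 0.11 in jerboa forelimb (5.9e-11), -1.17 ± 0.10 in mouse foot (1e-09) and -1.45 ± 0.10 in mouse forelimb (4.3e-11). Cox6a1 was also lower at P3 in all 4, by -0.75 ± 0.09, -0.40 ± 0.09, -0.88 ± 0.09 and -0.69 ± 0.09 in the same order, with adjusted p of at most 0.00064. No P3 library of either gene reached a P0 library of the same tissue. Among the 4 tissues Cox7a2 was called in mouse foot, where it was higher at P3 (0.45 ± 0.14, adjusted p = 0.0077), and this was lost without P0 replicate 2 (0.36, adjusted p = 0.053). Its other values were 0.13 ± 0.14 in jerboa foot, -0.32 ± 0.14 in jerboa forelimb and 0.23 ± 0.14 in mouse forelimb.

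The muscle isoforms called between ages were higher at P3 in mouse and lower at P3 in jerboa foot. Cox7a1 was 4.31-fold higher at P3 in mouse foot (2.11 ± 0.16, adjusted p = 1.1e-10) and 3.87-fold higher in mouse forelimb (1.95 ± 0.13, adjusted p = 2.5e-11). In mouse foot 99.2% of genes had a lower value than Cox7a1. Cox8b was higher at P3 in mouse forelimb (1.06 ± 0.13, adjusted p = 3.9e-07), with 0.07 ± 0.13 in mouse foot, 0.03 ± 0.13 in jerboa forelimb and -0.28 ± 0.15 in jerboa foot, none of them called. Cox6a2 was higher at P3 in mouse forelimb (0.29 ± 0.10, adjusted p = 0.018), a call lost without P0 replicate 2 (0.25, adjusted p = 0.074) or P3 replicate 1 (0.21, adjusted p = 0.11). In jerboa foot Cox6a2 was lower at P3 (-0.81 ± 0.11, adjusted p = 1.4e-06), as was Cox7a1 (-0.37 ± 0.13, adjusted p = 0.02). The Cox7a1 call was lost without foot P0 replicate 2 (-0.34, adjusted p = 0.059) or P3 replicate 3 (-0.31, adjusted p = 0.091). In jerboa forelimb no muscle isoform was called between the ages with all libraries kept, and Cox6a2 there was called without P3 replicate 1 (-0.29, adjusted p = 0.032).

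**Figure D4:**
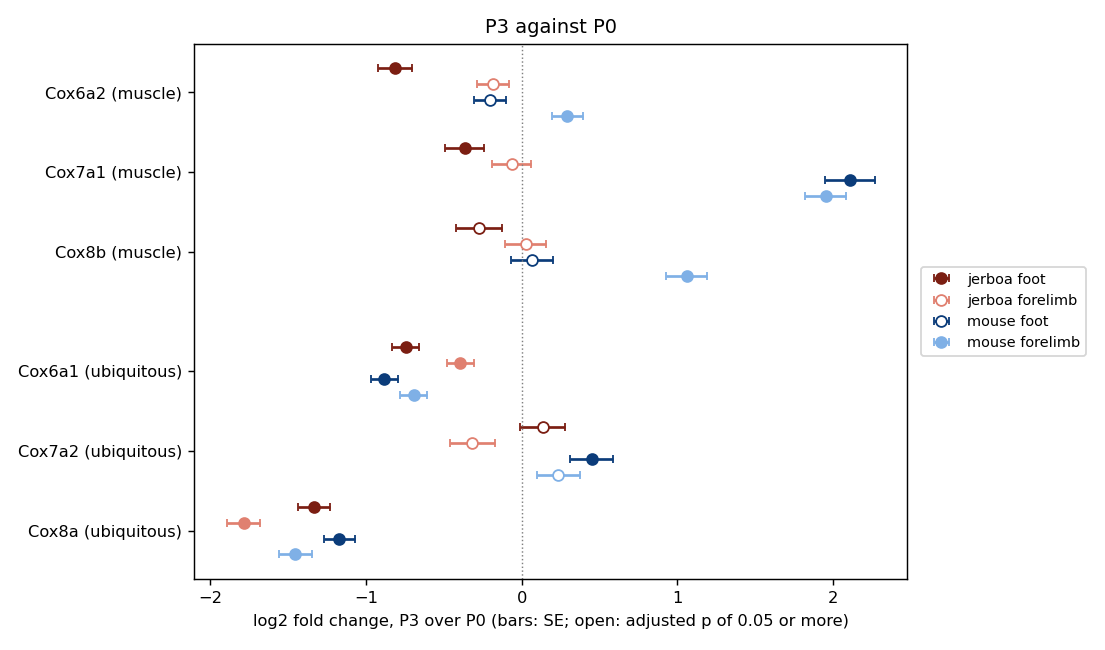
Log2 fold change of each isoform at P3 over P0, with SE, in the 4 tissues. Filled points are called and open points are not. Cox6a1 and Cox8a lie below 0 in all 4 tissues, and Cox7a1 lies at 2.11 and 1.95 in mouse foot and forelimb.

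The age difference was unequal between limbs for some members, by an interaction term taken as foot minus forelimb. In mouse it was -0.99 ± 0.19 for Cox8b (adjusted p = 0.00027) and -0.50 ± 0.14 for Cox6a2 (adjusted p = 0.0096), against 31.5% of all genes called (17.2% higher and 14.3% lower). In jerboa it was -0.63 ± 0.15 for Cox6a2 (adjusted p = 0.0026), -0.35 ± 0.12 for Cox6a1 (adjusted p = 0.033) and 0.45 ± 0.15 for Cox8a (adjusted p = 0.024), against 28.3% of genes called (16.2% higher and 12.1% lower). The jerboa calls of Cox6a1 and Cox8a were each lost when single libraries were left out. Cox6a1 fell out without jerboa foot P0 replicate 1 or 2, foot P3 replicate 3, forelimb P0 replicate 2 or 3, or forelimb P3 replicate 1 or 3. Cox8a fell out without jerboa foot P0 replicate 3, foot P3 replicate 1 or 2, forelimb P0 replicate 1 or forelimb P3 replicate 2. Without those libraries the values were -0.24 to -0.36 for Cox6a1 and 0.36 to 0.42 for Cox8a. The mouse value of Cox7a1 was 0.16 ± 0.21 and not called, and became 0.54 (adjusted p = 0.0092) without mouse foot P0 replicate 1. The jerboa value of Cox7a2 was 0.45 ± 0.20 (adjusted p = 0.10), and it passed the threshold without foot P0 replicate 3 (0.61, adjusted p = 0.029) or forelimb P0 replicate 3 (0.58, adjusted p = 0.037).

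The isoform ratios were compared between ages as well. The ratio of Cox8b to Cox8a was higher at P3, by 1.45 on the log2 scale in jerboa and 1.89 in mouse, averaged over limbs (exact two-sided permutation p = 0.005, adjusted p = 0.0075 over 6 tests). In mouse the ratio was also higher at P3 for Cox6a2 to Cox6a1, by 0.83, and for Cox7a1 to Cox7a2, by 1.70 (exact permutation, adjusted p = 0.0075 for each). The jerboa values for these pairs were 0.06 for subunit 6a (exact permutation, adjusted p = 0.525) and -0.14 for subunit 7a (exact permutation, adjusted p = 0.498). For 7a the 2 jerboa limbs had opposite signs, with -0.52 ± 0.19 in foot and 0.23 ± 0.13 in forelimb. The gain of Cox8b on Cox8a in jerboa came with a lower Cox8a, since Cox8b itself was not called in either jerboa tissue. Mouse foot was alike for subunits 8 and 6a. There Cox8b was not called (0.07 ± 0.13) and Cox8a was lower (-1.17 ± 0.10). Cox6a2 was not called either (-0.20 ± 0.10), and Cox6a1 was lower (-0.88 ± 0.09).

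The other subunits of the complex were counted against the same background. Of 13 listed subunit genes 11 passed the filter, and the counts lower in foot were 8 in jerboa at P0, 4 in jerboa at P3, 8 in mouse at P0 and 7 in mouse at P3. The share of all genes called lower was 34.8%, 32.1%, 29.3% and 25.3%, so the count in jerboa at P3 was near the background. Those higher were 2, 2, 1 and 0, beside 31.2%, 35.9%, 29.8% and 27.3% of all genes. The median log2 fold changes were -0.77, -0.18, -0.53 and -0.48, beside medians over all genes of -0.01, 0.04, 0.01 and 0.03. Cox4i1, the common form of subunit 4, was lower in foot in all 4 comparisons (-0.59 ± 0.07, -0.32 ± 0.07, -0.53 ± 0.07 and -0.71 ± 0.07, adjusted p of at most 0.00039). Cox4i2, its lung and low-oxygen form, was higher in jerboa foot, with 80.3 ± 10.7 CPM in foot and 29.3 ± 2.07 CPM in forelimb at P0 (1.45 ± 0.12, adjusted p = 7.8e-11) and 1.20 ± 0.12 at P3 (adjusted p = 1.8e-09). In mouse Cox4i2 was not called, with -0.09 ± 0.17 at P0 and -0.30 ± 0.15 at P3. Cox7a2l, a relative of the 7a subunits that helps tie respiratory complexes together, was higher in jerboa foot at both ages (0.42 ± 0.09 each). In mouse Cox7a2l was lower at P0 (-0.23 ± 0.09, adjusted p = 0.027) and not called at P3 (0.10 ± 0.09).

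**Figure D5:**
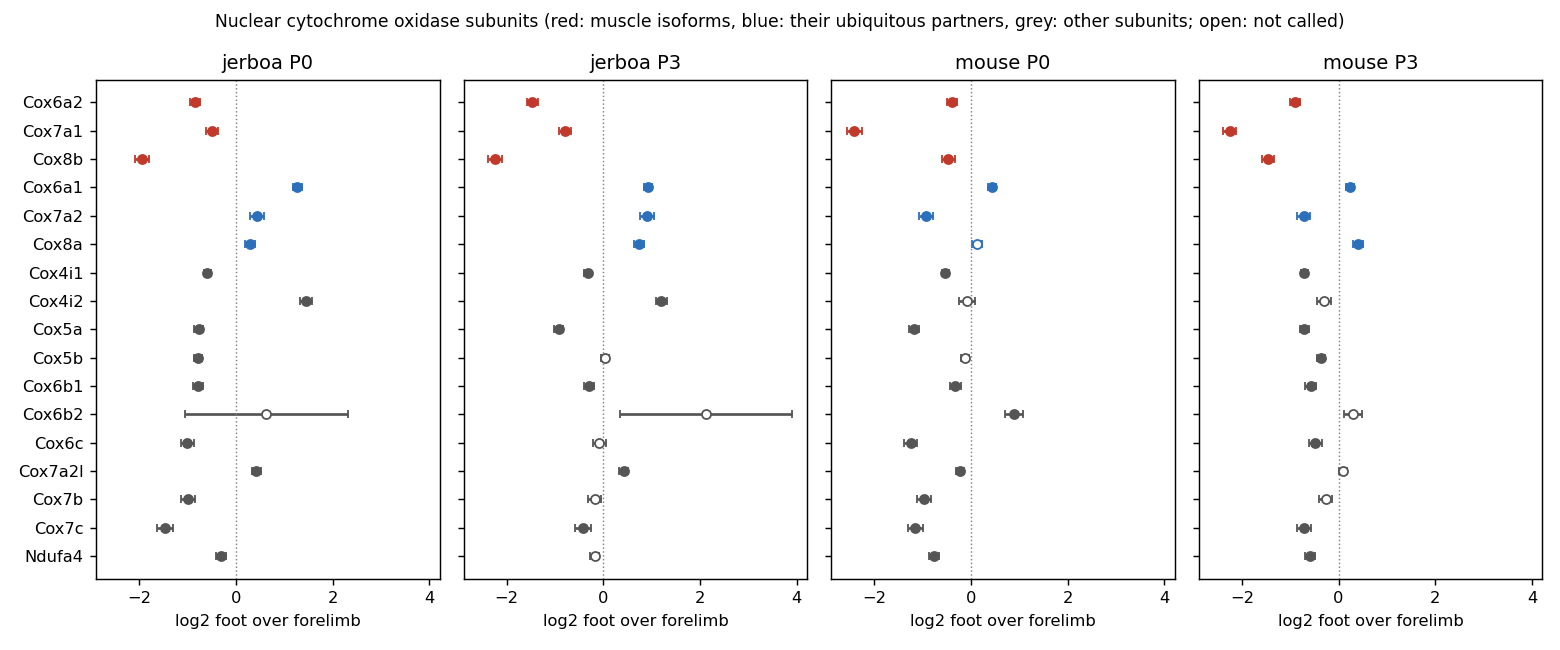
Log2 fold change in foot over forelimb, with SE, of the muscle isoforms (red), the ubiquitous isoforms (blue) and the other cytochrome oxidase subunits tested (grey), in 4 panels for species and age. Filled points are called and open points are not, and Cox6b2 has wide bars in jerboa, where it had at most 1 read in a group. Cox4i2 and Cox7a2l lie above 0 in jerboa, at 1.45 and 0.42 at P0.

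Wider lists of mitochondrial genes were counted in the same way. In jerboa P0, jerboa P3, mouse P0 and mouse P3, 34.8%, 32.1%, 29.3% and 25.3% of all genes were called lower. The shares called higher were 31.2%, 35.9%, 29.8% and 27.3%. Of 15 citrate cycle genes, 13, 15, 15 and 15 were lower in jerboa P0, jerboa P3, mouse P0 and mouse P3, with medians of -0.68, -0.85, -0.84 and -0.68 and none higher. Citrate synthase, Cs, which starts the cycle, was at -1.04 ± 0.08 in jerboa at P0 and -1.28 ± 0.08 at P3. Of 27 tested assembly factors of cytochrome oxidase, 14, 9, 13 and 9 were lower and 5, 7, 2 and 1 higher, with medians of -0.27, -0.01, -0.21 and -0.13. The lower counts at P3 were near the 32.1% of all genes called lower in jerboa and not far from the 25.3% in mouse. Among them the membrane insertase Oxa1l was higher in jerboa foot at P0 (0.86 ± 0.06), and Taco1, which aids translation of a core subunit, was lower in mouse foot at P0 (-0.99 ± 0.13). Of 18 regulators of mitochondrial biogenesis, 11, 9, 8 and 8 were lower and 3, 3, 4 and 1 higher. Ppargc1a, a coactivator that drives mitochondrial gene expression, was lower in mouse foot (-2.32 ± 0.15 at P0 and -1.64 ± 0.14 at P3) and in jerboa foot at P3 (-1.12 ± 0.14), with -0.23 ± 0.14 in jerboa at P0 (adjusted p = 0.15). Esrra, a nuclear receptor that works with it, was lower in all 4 comparisons, by -1.08 ± 0.09, -0.39 ± 0.09, -0.95 ± 0.09 and -0.47 ± 0.09.

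Of 6 other mitochondrial or oxygen-handling genes typical of muscle, 5, 5, 5 and 6 were lower in foot. Beside these, 34.8%, 32.1%, 29.3% and 25.3% of all genes were called lower. Slc25a4, the muscle form of the carrier that exchanges ADP and ATP, was at -1.40 ± 0.10, -1.13 ± 0.10, -1.34 ± 0.10 and -1.04 ± 0.10. The exception was Mb, the oxygen store myoglobin, which was higher in jerboa foot, with 134 ± 15.1 CPM in foot and 21.8 ± 4.04 CPM in forelimb at P0 (2.62 ± 0.15, adjusted p = 2.7e-13) and 399 ± 54.3 against 51.8 ± 14.3 CPM at P3 (2.95 ± 0.15, adjusted p = 1.3e-14). Mb was not called in mouse at P0 (-0.19 ± 0.14) and was lower in mouse foot at P3 (-1.69 ± 0.14, adjusted p = 5.2e-10).

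Markers of other cells moved with the limb as well, and their part in the results for the isoforms was not tested. In jerboa P0, jerboa P3, mouse P0 and mouse P3, 34.8%, 32.1%, 29.3% and 25.3% of all genes were called lower. The shares called higher were 31.2%, 35.9%, 29.8% and 27.3%. Of 24 measured myofibre genes, 20, 18, 20 and 19 were lower in foot and 3, 4, 3 and 4 higher, with medians of -0.91, -0.95, -1.02 and -0.84. Dmd, which encodes dystrophin, was at -1.94, -2.19, -1.43 and -1.14. Their summed level ran from 60984 to 66732 CPM in jerboa foot and 105720 to 119753 CPM in jerboa forelimb at P0, and from 45882 to 61819 CPM in mouse foot and 96337 to 107464 CPM in mouse forelimb. At P3 it ran from 45488 to 47928 CPM in jerboa foot, 83993 to 93902 CPM in jerboa forelimb, 59703 to 63009 CPM in mouse foot and 96334 to 103940 CPM in mouse forelimb. The myofibre median was further below 0 than Cox6a2 in both species at P0, Cox7a1 in jerboa at both ages and Cox8b in mouse at P0. It was nearer to 0 than Cox6a2 in both species at P3, Cox7a1 in mouse at both ages, Cox8b in jerboa at both ages and Cox8b in mouse at P3. No test was made of these contrasts. Slow fibre genes were mixed, with 5, 4, 6 and 4 of 9 lower and 4, 4, 3 and 3 higher.

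Endothelial genes were lower in foot for 8, 8, 7 and 8 of 8 measured, and tendon genes higher for 7, 7, 7 and 8 of 8. The summed endothelial level in jerboa at P0 was 167 to 206 CPM in foot and 683 to 741 CPM in forelimb, and in mouse 485 to 550.1 CPM in foot and 855 to 908 CPM in forelimb. At P3 it was 196 to 222 CPM in jerboa foot, 962 to 1110 CPM in jerboa forelimb, 513 to 562 CPM in mouse foot and 1079 to 1169 CPM in mouse forelimb. The summed tendon level ran from 27569 to 34206 CPM in the jerboa foot libraries and from 18301 to 21464 CPM in the jerboa forelimb libraries. In mouse it ran from 12036 to 17028 CPM in foot and 8492 to 12399 CPM in forelimb. Most of this sum was the collagen gene Col1a1 in every group. The Col1a1 mean was higher in foot in jerboa at both ages and in mouse at P3. In mouse at P0 it was 10228.5 ± 408 CPM in foot and 10568.5 ± 403 CPM in forelimb. Cartilage and bone genes were higher in foot for 5, 4, 9 and 6 of 10 and lower for 1, 1, 0 and 0. Macrophage genes were lower for 5, 4, 3 and 1 of 6 and higher for 1 in each comparison. Keratinocyte genes were higher for 2, 3, 2 and 1 of 5 tested and lower for 0, 0, 1 and 1. Beside these, 34.8%, 32.1%, 29.3% and 25.3% of all genes were called lower and 31.2%, 35.9%, 29.8% and 27.3% higher. Several of the cartilage, macrophage and keratinocyte counts were near those shares.

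Because Cox7a1 and Cox8b are also brown fat genes, that tissue was looked for. Ucp1, which defines brown fat, had 0 to 5 reads over the 3 libraries of any group. Elovl3, another of its markers, had at most 0.252 CPM in a group. Of the 9 brown fat markers the summed level was 54.2 to 91.9 CPM over all 24 libraries, of which Cidea gave 14.2 to 49.99 CPM in the group means. Ppargc1a gave 4.64 to 34.8 CPM and Zic1 7.79 to 22.5 CPM in the group means. These markers did not share a direction. In each species and age the mean of Cidea was higher in foot and that of Dio2, at most 11.3 CPM in a group, was lower in foot. Adipoq, the fat hormone adiponectin, had 604 reads in mouse forelimb at P3 (3.92 ± 1.73 CPM) and at most 7 reads in any other group. The 11 fat genes summed to 1040 to 1148 CPM in mouse forelimb and 393 to 429 CPM in mouse foot at P3, and 9 of 10 tested were lower in mouse foot. In the other comparisons 6, 5 and 4 of 10 were lower, in jerboa at P0, jerboa at P3 and mouse at P0. The shares of all genes called lower there were 34.8%, 32.1% and 29.3%, and 25.3% in mouse at P3. Summed fat levels were 73.9 to 127 CPM in jerboa foot and 462 to 673 CPM in jerboa forelimb, and in mouse at P0 168 to 192 CPM in foot and 566 to 648 CPM in forelimb. Heart was checked since it makes the same muscle isoforms. The heart hormone Nppa had at most 0.478 CPM in a group, and the 7 heart genes summed to 362 to 977 CPM over the 24 libraries. Most of that sum was Tnnt2, with group means of 165 to 674 CPM, and the myosin Myh6, with 16.3 to 329 CPM. The Tnnt2 mean was higher in foot than in forelimb in each species and age. The Myh6 mean was lower in foot except in jerboa at P3.

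Base composition also moved with the comparisons. When genes were ranked by the GC content of the mouse transcript and split into 5 equal groups, Cox6a1 and Cox8a fell in group 5, the highest, Cox6a2, Cox7a1 and Cox8b in group 4, and Cox7a2 in group 3. At P3 relative to P0 the median log2 fold change of GC group 5 was -0.29 in jerboa foot, -0.26 in jerboa forelimb, -0.43 in mouse foot and -0.31 in mouse forelimb. The lowest group had medians of 0.30, 0.15, 0.39 and 0.18. The direction of Cox6a1 and Cox8a between ages was thus that of their GC group, at a larger size. Between limbs GC group 5 had medians of 0.26, 0.28, 0.23 and 0.13 in jerboa P0, jerboa P3, mouse P0 and mouse P3. Cox6a1 and Cox8a had the sign of that group in each species and age. In mouse at P0 the value of Cox8a, 0.12, was below the group median. Group 4, which holds the muscle isoforms, had medians of 0.09, 0.11, 0.14 and 0.04 in the same order. These were opposite in sign to the muscle isoforms. The part of base composition in the members' values was not tested.

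The members also varied together across libraries, which is given as a description over 12 libraries a species that share limb and age. The log2 levels of the muscle isoforms correlated positively with each other, with Pearson r of 0.97 for Cox6a2 and Cox7a1, 0.90 for Cox6a2 and Cox8b, and 0.93 for Cox7a1 and Cox8b in jerboa. In mouse the same r were 0.73, 0.89 and 0.87. Cox7a2 correlated with Cox7a1 at -0.77 in jerboa and 0.92 in mouse. The ubiquitous Cox6a1 and Cox8a correlated at 0.69 in jerboa and 0.95 in mouse.

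The genes whose levels followed each muscle isoform most closely were ranked by the smaller of the jerboa and mouse r among 14124 genes. For Cox6a2 they included Igfbp5, a binding protein for insulin-like growth factors (0.99 in jerboa and 0.95 in mouse), and Fam240b (0.94 and 0.95). For Cox7a1 they were Myoz3, a protein of the Z-disc (0.98 and 0.98), Tnnc2, the calcium sensor of fast fibres (0.98 and 0.99), and Crat, carnitine acetyltransferase (0.97 and 0.99). For Cox8b they were the kinase Rps6ka2 (0.98 and 0.95), the junction protein F11r (0.95 and 0.95) and Tacc2 (0.98 and 0.95).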

How the data were processed

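The deposited files hold raw read counts per feature, with no normalization, per the file headers and values, in 24 libraries of 8 groups. Features carry mouse transcript identifiers in both species. The submitters' processing notes name STAR. For its version, the genome builds and the library kit, nothing was stated in the sources used here. Of the 3 count columns per file, the last held 98.4% to 99.6% of the reads assigned to a strand and was used as the count. GENCODE M21 gave symbols to 17529 of 17641 features, with 5 symbols on more than 1 feature.

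Counts were fitted in R 4.3.3 with edgeR 4.0.16 (TMM, filterByExpr, 1 coefficient per group over all 24 libraries, quasi-likelihood F test), with Benjamini-Hochberg adjustment over the 14448 genes tested and a threshold of 0.05. The biological coefficient of variation was 0.0842. Scripts were tested on simulated data. Isoform ratios used counts plus 0.5 and an exact two-sided permutation test within strata. Totals of 16.7 M to 54.7 M reads put the level of 3 reads at 0.0549 to 0.179 CPM. Replicates differed by more than sampling noise, with chi-square per degree of freedom of 6.64 to 42.4. Sequences were aligned with Biopython 1.88 and compared with BLAST 2.17.0.

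Named genes were the 6 members, up to 3 genes with the smallest p from each list described, 7 genes with a known role beside the members (Cox7a2l, Cox4i1, Cox4i2, Ppargc1a, Esrra, Slc25a4 and Ucp1) and, for each muscle isoform, the 3 genes closest in pattern, of which 1 is not reported here. Mb, Elovl3, Cidea, Zic1, Dio2, Adipoq, Nppa, Tnni3, Mybpc3, Ryr2, Myh6, Tnnt2 and Col1a1 were named after their values were seen. Members and lists were chosen with earlier results of these data known. Alternatives were DESeq2 1.42.0, limma 3.58.1 (voom), other scalings and filters, reads of either strand, only the libraries compared, a replicate block, and leaving out each library.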

Additional observations from a re-analysis of the deposited data

Results flagged for a closer look

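The difference between foot and forelimb was itself different in jerboa and mouse, by the interaction test, for 5 of the 6 isoforms. As jerboa minus mouse log2 fold change, the values at P0 were 0.84 for Cox6a1, -0.44 for Cox6a2, 1.92 for Cox7a1, 1.37 for Cox7a2 and -1.46 for Cox8b. At P3 they were 0.68 for Cox6a1, -0.57 for Cox6a2, 1.46 for Cox7a1, 1.61 for Cox7a2 and -0.77 for Cox8b. All 10 had an adjusted p of at most 0.015 (edgeR). Such differences were common, with 48.6% of all genes called at P0 and 49.0% at P3. Cox6a2 at P0 was not called without jerboa forelimb replicate 3.

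The difference between P3 and P0 was unequal in foot and forelimb, again by the interaction test, for 3 isoforms in jerboa and 2 in mouse. In jerboa the values were -0.35 for Cox6a1, -0.63 for Cox6a2 and 0.45 for Cox8a. In mouse they were -0.50 for Cox6a2 and -0.99 for Cox8b. Of all genes, 28.3% were called in jerboa and 31.5% in mouse, and 2 of 6 members in mouse is near that share. The jerboa calls of Cox6a1 and Cox8a were lost when single libraries were left out, and that of Cox8a also with only the libraries compared (0.39, adjusted p = 0.053).

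Reads on the strand opposite to the counted one entered only the alternative with reads of either strand. Under that alternative all 72 member values kept their direction and side of the threshold. Opposite-strand reads were above the share of their own library for Cox7a1 in 12 of 12 jerboa libraries. Up to 4.16% of the Cox7a1 reads of a jerboa library lay on that strand, with a lowest value of 1.47% and 2046 reads in all, where whole jerboa libraries had 0.418% to 0.549%. In mouse Cox7a1 was above the share of its library in 1 of 12. Cox8b was above that share in 4 of 12 jerboa libraries, at up to 1.36%, from 49 such reads in all. The cause was not tested.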

How the results depend on the processing

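No count of called genes moved by over 1.5 times and no isoform ratio changed its side of the threshold under the alternatives run. For the ratios between limbs, foot and forelimb libraries did not overlap in any comparison. Leaving out 1 library therefore could not move those tests across the threshold. Of the members' values 1178 kept their direction and side of the threshold, 27 lost the call, 15 gained it and 4 changed sign. Those 4 were not called and changed sign when 1 library was left out. Over single libraries left out, Cox7a1 in jerboa forelimb between ages ran from -0.11 to 0.0025 (without P0 replicate 1), Cox8b there from -0.083 (without P0 replicate 3) to 0.098, and Cox8b in mouse foot from -0.096 (without P0 replicate 2) to 0.19. The mouse limb difference of Cox7a1 between ages ran from -0.14 (without foot P0 replicate 2) to 0.54. Between ages, leaving out 1 library also called Cox7a2 in jerboa forelimb (-0.44, adjusted p = 0.023, without P0 replicate 3) and in mouse forelimb (0.41, adjusted p = 0.014, without P0 replicate 1), and Cox6a2 in mouse foot (-0.30, adjusted p = 0.019, without P0 replicate 2). With only the libraries compared, Cox8b in jerboa foot between ages was called (-0.33, adjusted p = 0.037), as was the jerboa limb difference of Cox7a1 between ages (-0.37, adjusted p = 0.01), while that of Cox8a was lost (0.39, adjusted p = 0.053). The cause was not tested. The largest move of a member over the settings other than leaving out a library was 0.127 on the log2 scale, under limma voom.

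Same-numbered foot and forelimb libraries did not deviate together, with r of -0.08 to 0.09 over 12 pairs. Of 12 foot libraries, 4 were closest to their own number. That cannot settle whether same-numbered libraries came from the same animal, and the main fit did not pair them. The fit with the replicate block added 2 calls, Cox8a in the species comparison at P3 (0.34, adjusted p = 0.037) and Cox6a2 in mouse foot between ages (-0.20, adjusted p = 0.046). It could not be applied to the isoform ratios between ages.

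Depth limits Cox7a1 in mouse foot at P0 most, where a library had as few as 123 reads.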

Other observations

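The ubiquitous isoforms had close followers of their own, ranked by the smaller r of jerboa and mouse as for the muscle isoforms and named after their values were seen. For Cox6a1 the nearest in pattern were the monoamine transporter Slc29a4 (0.98 in jerboa and 0.98 in mouse), the nuclear receptor Nr1h2 (0.99 and 0.98) and the splicing protein Snrpa (0.98 and 0.97). For Cox8a they were Rbck1 (0.98 and 0.98), Scand1 (0.97 and 0.98) and Chpf (0.97 and 0.97). The nearest to Cox7a2 was less close, with Tmco1 at 0.89 in jerboa and 0.91 in mouse. These are values over 12 libraries a species that share limb and age.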
